A study of Bos grunniens and Bos taurus with 11 samples.

Results

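The genes described here are the 64 annotated genes that were higher in both cattle lungs than in every yak lung. An annotated gene is one listed under a numeric identifier of the yak annotation, as opposed to a new gene assembled from the reads. Levels are in FPKM, or fragments per kilobase of gene, here scaled to the reads counted on the listed genes of the library. A gene was taken when its mean over the 11 libraries was under 500 FPKM and at least 2 libraries had at least 1 FPKM. The lower cattle value also had to be at least 1.5 times the highest yak value, with 1 FPKM added to both. The 2 limits on the level left 6903 of the 8451 annotated genes, and the 64 genes were 0.927% of these 6903. The series lists 17267 genes in all. The members were therefore chosen by the difference between cattle and yaks, so that difference is given below as a description from which nothing is inferred, whereas differences among the yaks from different altitudes, which the rule did not compare, were tested.

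RNA was sequenced from the lungs of 11 adult males, with 1 library per animal. The control group, CON, was 2 Zaosheng cattle from an altitude of 1500 m. The yaks formed 3 groups of 3 animals: T1 from Maqu at 3400 m, T2 at 4200 m and T3 from Anduo at 5000 m. The T2 animals came from 3 counties, with replicate 1 from Linzhou, replicate 2 from Bange and replicate 3 from Dangxiong. Species, altitude and county changed together between cattle and yaks, so their parts in any difference between CON and the yaks cannot be told apart. Among the yaks altitude and county likewise changed together.

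Cattle and yak are closely related bovines, and the yak has lived on the Qinghai-Tibetan Plateau for far longer than lowland cattle breeds. The lung holds alveolar epithelium, capillary endothelium, airway lining, smooth muscle and resident leukocytes, and all of them contribute to RNA taken from the whole organ. In such bulk samples, fewer cells of a type and less RNA per cell cannot be told apart. Reads of both species were aligned to a yak genome, so a cattle transcript was counted only as far as its reads matched the yak sequence.

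Between 28138973 and 54515645 reads fell on genes, with a median of 38912475 per library. T3 replicates 1 and 2 stood apart. T3 replicate 2 had 3747 listed genes without a read and T3 replicate 1 had 2816, against 1821 to 2342 in the other libraries. In the same pair of libraries the 10 most abundant genes took 40.66% and 39.65% of the reads, against 17.48% to 30.83% elsewhere. The paper also reports the lowest shares of uniquely aligned reads for this pair. The files name no annotated gene, and a reference table of 40772 yak genes, which is of another assembly (Bosgru_T2T1.0), held no such identifier, so members are here described by identifier or by rank, length and level, without a gene name or function. Of 72 marker and pathway symbols looked for, 2 were paired with a gene, both of them new genes and neither a member. PTPRC, the leukocyte common antigen, was at 52.2 and 60.5 FPKM in the cattle and between 30.3 and 84.6 FPKM in the yaks. CXCL8, a neutrophil chemokine, was at 5.12 and 6.91 FPKM in the cattle, 75.5 FPKM in T2 replicate 1 and at most 2.91 FPKM in the other yaks. No marker of alveolar epithelium was paired with a gene, so the label of lung tissue could not be checked, and the extraction text of the labels speaks of retinas.

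Members were ranked by the ratio of the rule, from 6.07 at rank 1 to 1.51 at rank 64, with a median of 1.84. The ratio reached 2 in 26 members, 3 in 13, 4 in 6 and 5 in 4. Just inside the limit of 1.5 were members with lower cattle and highest yak values of 18.6 and 12 FPKM, 22.4 and 14.6 FPKM, and 27 and 17.4 FPKM. Just outside it were genes at 7.72 and 4.82 FPKM, 18.5 and 12 FPKM, and 3.51 and 2.02 FPKM. No gap in the ratio separated members from the genes below the limit. With no margin at all, 329 annotated genes had both cattle above all yaks and 416 had both below. Over all 13636 annotated and new genes with at least 1 FPKM in at least 2 libraries, 804 (5.9%) had both cattle above all yaks.

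**Figure D1:**
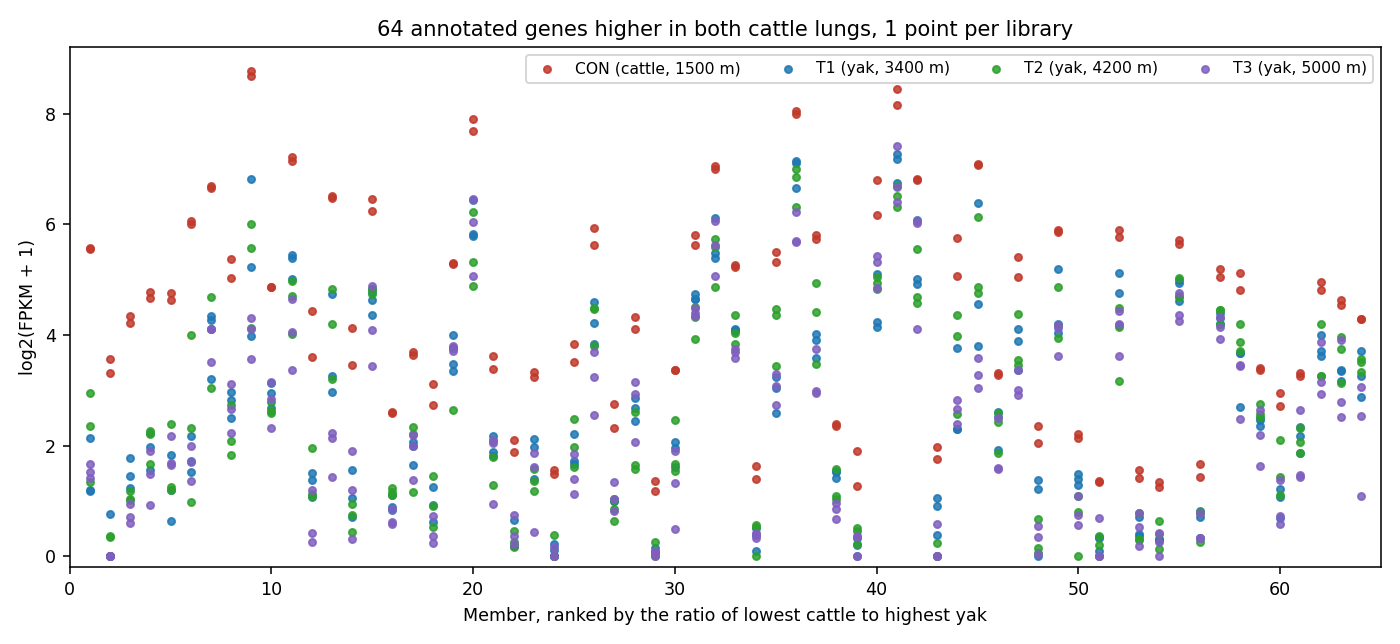
Level of each of the 64 members as log2(FPKM + 1) on the vertical axis, with members on the horizontal axis in order of rank and 1 point per library coloured by group. The cattle points lie above all yak points by construction, and the distance between them narrows from a ratio of 6.07 at rank 1 to 1.51 at rank 64.

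Members covered a wide range of levels. Their mean in the cattle ran from 1.42 to 425 FPKM with a median of 24 FPKM, and their mean in the yaks ran from 0.06 to 114 FPKM with a median of 4.11 FPKM. Over the 6903 annotated genes the medians were 14.1 FPKM in the cattle and 15.3 FPKM in the yaks. The cattle mean divided by the yak mean had a median of 4.26 over the members and a range of 1.85 to 70.3, and it was at least 3 in 48 members and at least 10 in 11. Between 45 and 29457 reads stood behind a member in a cattle library, and the median of the lower cattle read number was 846.

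The 9 members with a cattle mean of 100 FPKM or more were also well expressed in the yaks. Their yak means ran from 15.2 to 114 FPKM, and their cattle means were 2.66 to 11.4 times as high, with a median of 3.82. The highest of them in the cattle was the member at rank 9, a gene of 686 bases, with 438 and 411 FPKM in CON. It had 36.6, 112 and 14.7 FPKM in T1, 16.4, 63 and 46.6 FPKM in T2 and 18.8, 10.8 and 16.2 FPKM in T3. Its yak values thus spread widely within T1 and T2, while all 3 T3 values were low. The member at rank 11 had 141 and 147 FPKM in CON, 31.5, 41 and 42.6 FPKM in T1, 15.2, 25 and 30.3 FPKM in T2, and 9.35, 15.7 and 24 FPKM in T3. The member at rank 36, a gene of 2765 bases, had 253 and 263 FPKM in CON, 137, 141 and 99.8 FPKM in T1, 78.2, 127 and 115 FPKM in T2, and 74.1, 50.1 and 51 FPKM in T3. Both genes had T3 values below all T1 values. These 3 members, and the others given below by rank alone, were picked after their values were seen.

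The 32 members with a cattle mean from 10 to under 100 FPKM had yak means of 1.09 to 29.6 FPKM, and 25 of them had at least 1 FPKM in all 9 yaks. The cattle means were 1.85 to 17.2 times the yak means, with a median of 3.76. Gene 102279846, the member at rank 1 with a length of 1628 bases, had 46 and 46.4 FPKM in CON. It had 1.29, 1.28 and 3.39 FPKM in T1, 6.75, 1.54 and 4.12 FPKM in T2, and 1.87, 2.18 and 1.67 FPKM in T3. The cattle values were nearly equal, and the highest yak, T2 replicate 1, stood far below both. The cattle mean was 46.2 ± 0.243 FPKM (SD, n = 2), against 1.99 ± 1.22 in T1, 4.14 ± 2.6 in T2 and 1.91 ± 0.259 in T3 (SD, n = 3 each). On the log2(FPKM + 1) scale gene 102279846 was lower than in CON by -4.05 in T1, -3.34 in T2 and -4.02 in T3, each with a standard error of 0.45.

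The 23 members with a cattle mean under 10 FPKM had yak means of 0.06 to 4.41 FPKM and cattle means 2.15 to 70.3 times as high. Gene 102273010, at rank 2 with a length of 632 bases, was the one with the greatest fold. It had 10.8 and 8.88 FPKM in CON, from 266 and 212 reads. In the yaks it had 0.706 FPKM from 18 reads in T1 replicate 1, 0.289 FPKM from 7 reads in T2 replicate 1 and 0.266 FPKM from 7 reads in T2 replicate 3, and no read in the other 6 yaks. All 3 T3 libraries were at 0, where a count of 3 reads would have given up to 0.169 FPKM in the shallowest of them. Measured against that level, gene 102273010 was at least 58.4-fold lower in T3 than in CON, for which the limit covers counting error only.

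Low yak values were common among the members. In 10 members no yak reached 1 FPKM, in 37 all 9 yaks did, and in the remaining 17 some did. The 37 members were 57.8% of the 64, whereas 85.7% of the annotated genes had at least 1 FPKM in all 9 yaks. The rule itself favours genes that are low in the yaks, so these shares are a description from which nothing is inferred. The 10 members met the limit of 1 FPKM in 2 libraries through the cattle alone. The 10 members below 1 FPKM in every yak had cattle values of 1.26 to 10.8 FPKM from at least 45 reads. Apart from gene 102273010 their highest cattle value was 3.28 FPKM, and their highest yak value was 0.763 FPKM. They had no read in 20 of 90 yak values. Across all members, 54 had a read in every yak and 10 lacked one in at least 1 yak.

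The members were short genes by the lengths listed with the values. Their median length was 1278 bases, within a range of 156 to 12904, against 2203 bases for all 6903 annotated genes. Lengths under 1000 bases were listed for 24 members, or 37.5%, against 14.7% of the annotated genes. The 54 annotated genes chosen by the mirrored rule, with every yak at least 1.5 times both cattle, had a median length of 1507 bases, and 11 of them, or 20.4%, were under 1000 bases. Length was not part of the rule, but no test over the members was made, and what length has to do with membership was not tested.

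The same rule was applied to every other pair of libraries in place of the cattle, to show how many annotated genes a pair of libraries can hold above all others. The 54 other pairs gave a median of 1 gene, 17 of them gave 0, and 50 gave at most 5. Among the 36 pairs of yaks the number ran from 0 to 15 with a median of 2, and the 9 pairs of yaks from the same altitude gave 0 to 10. The highest yak pairs were T1 replicate 1 with T2 replicate 1 at 15 genes, and T2 replicate 1 with T2 replicate 3 at 10. One pair came near the cattle, namely CON replicate 1 with T2 replicate 1 at 54 genes. The other 17 pairs of 1 cattle and 1 yak gave at most 4.

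In these 54 genes the median was 25.2 FPKM in T2 replicate 1, 10.2 FPKM in CON replicate 1 and 5.22 FPKM in CON replicate 2, and between 1.5 and 3.98 FPKM in the other yaks. CON replicate 2 was above the other 8 yaks in 35 of them. T2 replicate 1 is also the library with the highest CXCL8 value given above, whose part in this count was not tested. In the opposite direction, the number of genes below all other libraries was 54 for the cattle and 323 for T3 replicate 1 with T3 replicate 2, the libraries with the most unread genes.

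**Figure D2:**
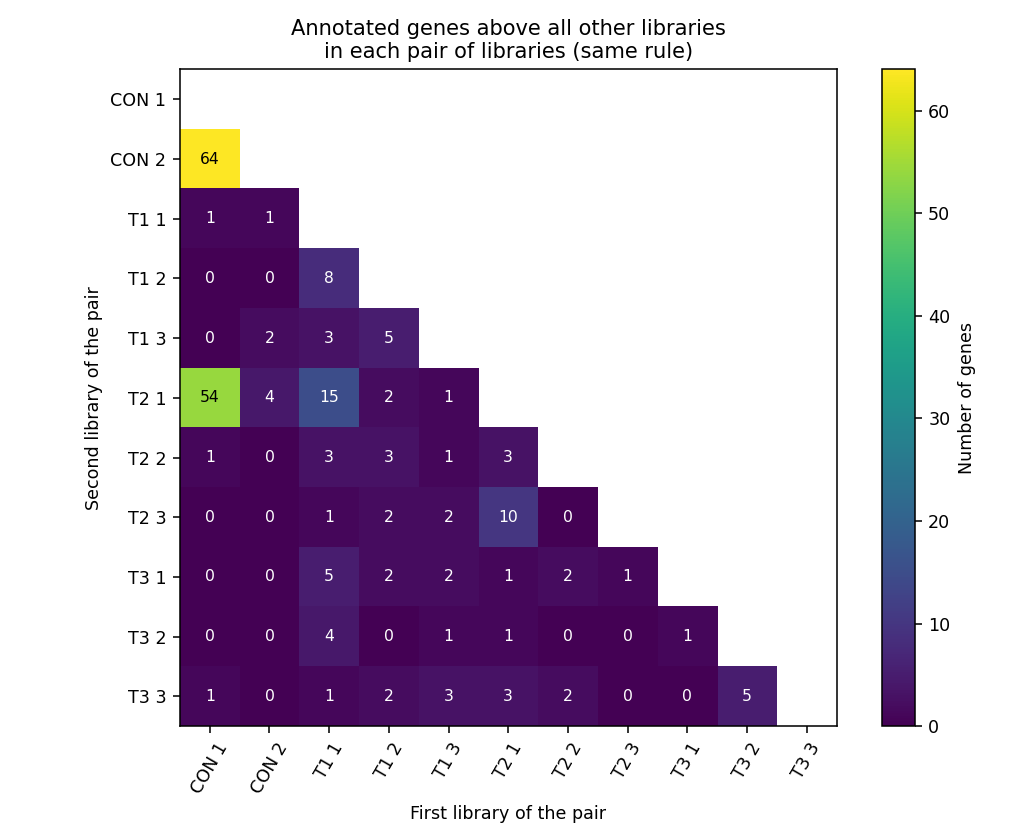
Number of annotated genes that met the rule for each of the 55 pairs of libraries, with the 2 libraries of a pair on the axes and the number as colour and digits. The cattle pair holds 64 genes and CON replicate 1 with T2 replicate 1 holds 54, while the remaining pairs hold 0 to 15.

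The new genes gave a like picture at a higher share. Of 6662 new genes that passed the same limits, 153 (2.3%) were higher in both cattle and 108 (1.62%) higher in every yak, against 64 (0.927%) and 54 (0.782%) of the annotated genes. Cattle-high genes thus outnumbered yak-high genes in both kinds, and this order depended on the T3 libraries that stood apart. Without T3 replicates 1 and 2, the rule gave 73 cattle-high and 99 yak-high annotated genes, and 164 and 192 new genes. With median-ratio scaling of the libraries the numbers were 65 and 56 for annotated genes and 167 and 115 for new genes. Of these 65 annotated genes 57 were among the 64 members.

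The members varied little between the 2 cattle. In 34 members CON replicate 1 was the higher and in 30 CON replicate 2. The absolute difference in log2(FPKM + 1) had a median of 0.12 and a maximum of 0.83, against a median of 0.17 and a 95th percentile of 0.74 over the annotated genes. The rule, which needs both cattle above all yaks, favours genes in which the 2 are close. The median member level was 24.2 FPKM in CON replicate 1 and 23.8 FPKM in CON replicate 2, and it ran from 2.86 FPKM in T3 replicate 2 to 4.68 FPKM in T2 replicate 3 among the yaks.

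Among the 9 yaks the SD of log2(FPKM + 1) had a median of 0.43 over the members, from 0.08 to 1.19, and the same median of 0.43 over the annotated genes. The highest yak value divided by the lowest, with 1 FPKM added to both, had a median of 2.54 and ran from 1.19 to 10.7. A member with a small spread was that at rank 57, with 35.8 and 32.3 FPKM in CON and between 14.2 and 20.8 FPKM in all yaks. By contrast the member at rank 45, a gene of 604 bases, had 134 and 136 FPKM in CON, 22.6, 82.7 and 12.9 FPKM in T1, 28.1, 69.2 and 26.2 FPKM in T2, and 11, 8.71 and 7.23 FPKM in T3.

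Members did not follow 1 shared course through the yaks. Over the 2016 pairs of members the correlation of log2(FPKM + 1) across the 9 yak libraries had a median of 0.11, against 0.21 over pairs of annotated genes, and it exceeded 0.9 in 4 pairs (0.198%, against 0.99%). These correlations are descriptions over 9 libraries that differ in depth and composition. The yak nearest to the cattle is the value that the rule capped, so its distribution is given as a description only, and the shares of annotated genes were not under that cap. It was T2 replicate 2 in 12 members (18.8%, against 10.1% of annotated genes), T2 replicate 1 in 11 (17.2%, against 23.1%) and T1 replicate 1 in 8 (12.5%, against 24.5%). It was T1 replicate 3 in 7 (10.9%, against 13.9%), T2 replicate 3 in 7 (10.9%, against 7.94%), T1 replicate 2 in 6 (9.38%, against 6.69%) and T3 replicate 1 in 6 (9.38%, against 2.9%). T3 replicate 3 was the highest in 4 (6.25%, against 7.4%) and T3 replicate 2 in 3 (4.69%, against 3.43%). The lowest yak was T3 replicate 2 in 14 members (21.9%, against 33% of annotated genes), T3 replicate 1 in 13 (20.3%, against 20.5%) and T2 replicate 1 in 11 (17.2%, against 16.2%).

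**Figure D3:**
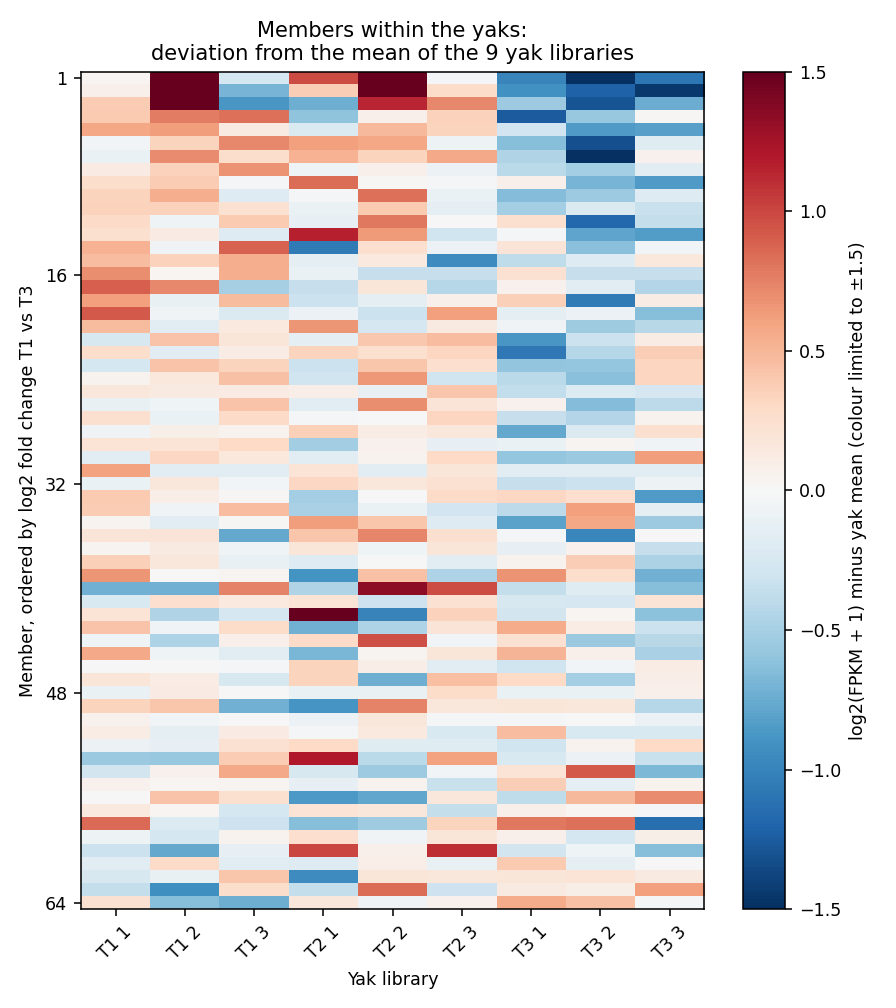
Deviation of each member in each yak library from its mean over the 9 yaks, on the log2(FPKM + 1) scale, with yak libraries on the horizontal axis and the 64 members on the vertical axis in order of their change from T1 to T3. Blue marks values below the yak mean and red values above it, and the median correlation between 2 members over the 9 libraries is 0.11.

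Each yak group was then set against CON with limma, a linear model fitted on log2(FPKM + 1) of all 13636 genes that passed the limit on low values. A gene was called when its Benjamini-Hochberg adjusted p was under 0.05 and its change at least 2-fold. Called as lower in the yaks were 36 members in T1, where 1.29% of all genes tested were called, 40 in T2 (1.21%) and 50 in T3 (2.08%). The rule was built on this contrast, so these numbers only describe how the members fell on the test. By that description 28 members were called against all 3 yak groups, 16 against 2, 10 against 1 and 10 against none. The 3 comparisons share the CON libraries. With 1 cattle library, assumed to vary like the other groups, limma called 7 members in T1, 7 in T2 and 12 in T3 without CON replicate 1, and 8, 7 and 11 without CON replicate 2. Without T3 replicates 1 and 2, the number in T3 was 20.

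The median log2 fold change over the members was -1.53 in T1, -1.59 in T2 and -1.86 in T3, against 0.17, 0.10 and -0.22 over all genes tested. Put as the cattle mean over the group mean, the median was 3.74 for T1, 3.99 for T2 and 5.27 for T3, the last over the 63 members with reads there. The cattle mean was at least 5 times the group mean in 24 members for T1, 27 for T2 and 34 for T3.

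The rule did not compare altitudes with each other, but it capped the highest of the 9 yaks relative to the lower cattle value. A gene raised in any 1 yak or altitude to near or above the cattle level could not be a member, whereas a smaller rise did not exclude a gene. Leaving out T2 replicate 1 gave 94 genes by the same rule and leaving out T3 replicate 1 gave 66, so the cap acted unevenly. The shares of members between altitudes that are set against all genes below are in part shaped by it. Limma called 0 members between T1 and T2, 0 between T1 and T3 and 0 between T2 and T3, and 0% of all genes tested in each, and voom, a limma variant that weights each log read count by the precision fitted for its level, also called 0 members. These counts moved with single libraries. Leaving out T3 replicate 3 keeps only the 2 T3 libraries that stood apart. Limma then called 4 of the 64 members and 1188 of the 13636 genes between T1 and T3. Between T2 and T3 it called 4 members and 865 genes. Weighting libraries by their spread gave T3 replicate 3 the lowest weight. With these weights limma called 5 members among 1266 genes between T1 and T3, and 0 members among 317 genes between T2 and T3. In none of these settings was the share of members above that of all genes tested. The lowest adjusted p of a member was 0.522 for T1 against T2, 0.133 for T1 against T3 and 0.223 for T2 against T3. At an unadjusted p under 0.05 and any fold, 4, 11 and 10 members differed in these comparisons, against 6.89%, 18.7% and 14.8% of all genes tested. The median standard error of a member's log2 fold change between altitudes was 0.32.

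At an unadjusted p under 0.05 with a 2-fold change, 7 members (10.9%) were lower in T3 than in T1 and 0 higher, where 5.45% of all genes tested were lower and 0.235% higher. Likewise 6 members (9.38%) were lower in T3 than in T2 and 0 higher, where the background was 5% and 0.418%. Between T1 and T2, 1 member (1.56%) was higher in T2 and 0 lower, with 0.755% and 1.86% of all genes. Counted by groups that did not overlap, 6 members were lower in T2 than in T1 (background 9.74%) and 3 higher (3.56%). From T1 to T3 it was 11 lower (21.6%) and 0 higher (0.579%), and from T2 to T3 12 lower (13.2%) and 0 higher (0.77%). The 6, 11 and 12 members were 9.38%, 17.2% and 18.8% of the 64, so these shares lay from below to somewhat above the background. The non-overlap counts depended on the scaling of the libraries. With median-ratio scaling, 3 members were lower and 5 higher from T1 to T2 (background 6.23% and 5.99%), 4 and 2 from T1 to T3 (6.14% and 4.82%), and 6 and 2 from T2 to T3 (5.79% and 3.6%). With quantile normalization the counts were 3 and 6 (7.37% and 5.43%), 4 and 2 (6.39% and 5.23%), and 3 and 2 (5.29% and 4.58%).

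The members leaned towards lower values in T3, and so did the genes at large. Their median log2 fold change was -0.01 from T1 to T2, -0.26 from T1 to T3 and -0.24 from T2 to T3, against -0.07, -0.37 and -0.30 over all genes tested. A value below 0 was found for 33, 51 and 43 of the 64 members, or 51.6%, 79.7% and 67.2%, against 57.9%, 84.1% and 76.5% of all genes tested. T3 held the lowest mean log2 level of the 3 yak groups in 40 members (62.5%, against 72.1% of annotated genes). The highest was held by T2 in 28 members (43.8%, against 36.9%), by T1 in 26 (40.6%, against 56.4%) and by T3 in 10 (15.6%, against 6.66%). With median-ratio scaling the member medians became 0.04, 0.08 and -0.03, with those of all genes at 0.01, 0.00 and -0.02. That scaling moved members and genes at large alike, so the changed sign between T1 and T3 says nothing about the members in particular. From T1 to T3 the member median lay above that of all genes with and without the scaling. Without T3 replicates 1 and 2, which leaves 1 T3 library that is assumed to vary like the others, the member median was -0.34 from T1 to T3 and -0.24 from T2 to T3, against -0.12 and -0.05 over all genes tested. The members then lay below the genes at large, whereas with all libraries and FPKM as deposited they lay above them.

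**Figure D4:**
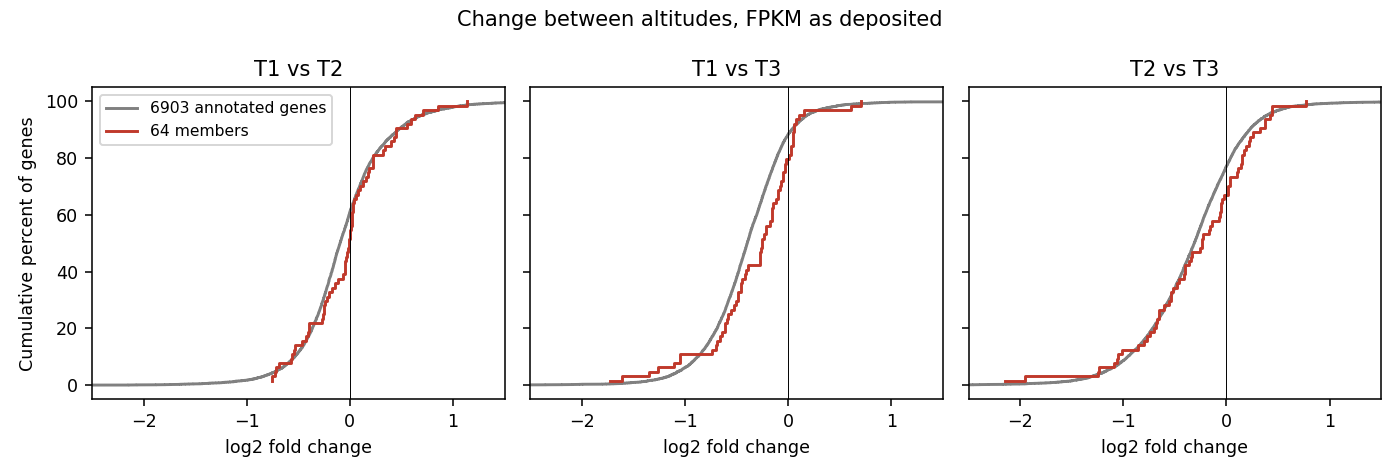
Cumulative percent of genes against log2 fold change on the log2(FPKM + 1) scale for T1 against T2, T1 against T3 and T2 against T3, for the 64 members in red and the annotated genes in grey. In the T1 against T3 panel 79.7% of members and 88.4% of annotated genes lie below 0.

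Gene 102273400, the member at rank 13 with a length of 6220 bases, had the most negative change from T1 to T3. It had 89.9 and 88.4 FPKM in CON, 8.63, 25.6 and 6.8 FPKM in T1, 17.4, 27.6 and 8.19 FPKM in T2, and 3.68, 1.69 and 3.39 FPKM in T3. The 3 T3 values lay below all T1 and T2 values, whereas T1 and T2 overlapped. The log2 fold change of gene 102273400 was -1.73 with a standard error of 0.48 from T1 to T3 (limma, unadjusted p = 0.00347, adjusted p = 0.144). From T2 to T3 it was -2.15 (unadjusted p = 0.000694, adjusted p = 0.223), and from T1 to T2 it was 0.42 (adjusted p = 0.876). None of the 3 passed the threshold after adjustment over all genes. Weighting libraries by their spread gave T3 replicate 3 the lowest weight. For T1 against T3 that weighting gave -2.02 with an adjusted p of 0.023 in limma, the lowest over its alternatives. Leaving out T3 replicates 1 and 2 gave -1.52. For T2 against T3, limma without T3 replicate 3 gave -2.25 with an adjusted p of 0.0372, past the threshold. The other alternatives for T2 against T3 gave adjusted p of 0.0676 to 0.719. In T3, both passes rested mainly or only on replicates 1 and 2, the libraries that stood apart. With median-ratio scaling, limma gave -1.31 (adjusted p = 0.677) for T1 against T3 and -1.82 (adjusted p = 0.516) for T2 against T3.

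The members whose pattern over the 9 yaks was most like that of gene 102273400 were those at rank 45 (r = 0.94), rank 47 (r = 0.88), rank 16 (r = 0.82), rank 26 (r = 0.8) and rank 37 (r = 0.78). The member at rank 47, a gene of 1955 bases, had 32.2 and 41.4 FPKM in CON, 13.8, 16.2 and 9.26 FPKM in T1, 10.7, 19.8 and 10 FPKM in T2, and 6.52, 7.03 and 9.26 FPKM in T3. Like gene 102273400, the members at ranks 45 and 47 had their highest yak values in T1 replicate 2 and T2 replicate 2. That pair of yaks held the highest values of 6 members (9.38%, against 2.33% of annotated genes). T2 replicates 1 and 3 held them for 7 members (10.9%, against 5.23%). Both are among the values that the rule capped, so these shares are given as a description only.

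Gene 102275173, the member at rank 40 with a length of 1168 bases, had the most positive change from T1 to T3. Its values were 111 and 71.2 FPKM in CON, 33.4, 17.9 and 16.7 FPKM in T1, 32.2, 27.5 and 29.7 FPKM in T2, and 42.2, 38.8 and 28 FPKM in T3. T1 and T3 overlapped, since T1 replicate 1 was above T3 replicate 3. The log2 fold change of gene 102275173 from T1 to T3 was 0.70 with a standard error of 0.29 (limma, unadjusted p = 0.0299, adjusted p = 0.234). Its alternatives gave 0.36 without T3 replicates 1 and 2 and 1.21 with median-ratio scaling, with adjusted p of 0.776 and 0.602, and 0.95 with library weights, with an adjusted p of 0.0332 that passed the threshold on a change of under 2-fold.

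**Figure D5:**
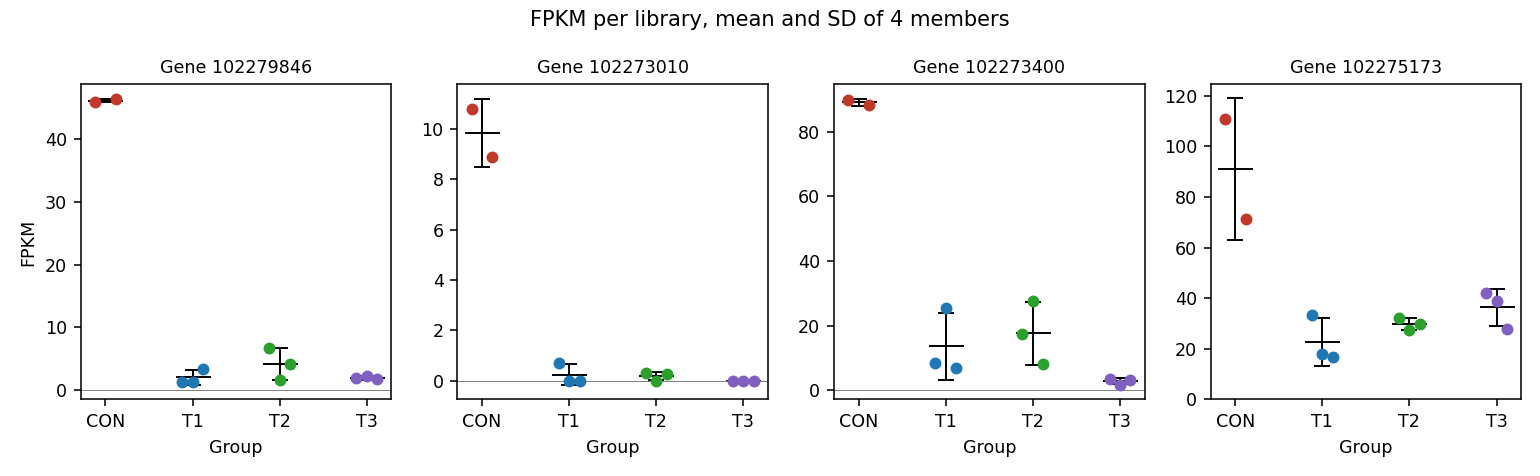
FPKM of the 4 members named by identifier in each library, in 1 panel per gene with groups on the horizontal axis, points for libraries and black bars for the mean and SD (n = 2 in CON, n = 3 in each yak group). In gene 102273400 the 3 T3 points sit at 1.69 to 3.68 FPKM, below all T1 and T2 points, and in gene 102273010 all T3 points are at 0.

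The member with the lowest unadjusted p between T1 and T3 was at rank 36, whose values are given above (limma, unadjusted p = 0.000995). The 1 member higher in T2 than in T1 at an unadjusted p under 0.05 was at rank 35, a gene of 885 bases, with a log2 fold change of 1.14. It had 38.9 and 44.2 FPKM in CON, 7.22, 5.05 and 8.46 FPKM in T1, 19.7, 9.89 and 21.2 FPKM in T2, and 7.48, 8.83 and 5.64 FPKM in T3. The 3 T2 values lay above those of both other yak groups. Neither member passed the threshold after adjustment.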

How the data were processed

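Lung RNA of 2 cattle (CON) and 9 yaks (T1, T2, T3) was measured. The authors deposited FPKM values per gene with a gene length. Their methods describe removal of low-quality reads, alignment to the yak genome BosGru_v2.0 with HISAT2 and assembly with StringTie, whereas the submitters' processing notes name Bowtie2 2.2.8 and TopHat2 2.1.1, and which of these made the deposited values is not clear. How strand was counted is not given in the sources used here. FPKM values were whole multiples of 1 read in 100% of cases (tolerance 0.01), which gave the reads per gene and library.

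FPKM values were used as deposited. The rule, and the comparison of groups over the 13636 genes with at least 1 FPKM in at least 2 libraries, used a pseudocount of 1. Groups were compared with limma 3.58.1 (R 4.3.3) on log2(FPKM + 1), with 4 groups in 1 fit. Because of the pseudocount of 1, fold changes of low genes are understated. P-values were two-sided and adjusted by Benjamini-Hochberg over all genes. A gene was called at an adjusted p under 0.05 and a 2-fold change. Other steps used Python 3.11.15, numpy 2.4.6, pandas 2.3.3, scipy 1.17.1 and matplotlib 3.10.9. Both scripts were tested on simulated data.

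The genes named by identifier were the 2 members of highest ratio and those with the most negative and most positive change from T1 to T3. The members and lists were chosen with earlier results of these data known. Of the 72 symbols in the lists, 2 were paired with a gene. Alternatives were other pseudocounts, filters, thresholds, scalings and designs, leaving out each library, library weights and a replicate block. Voom on the recovered reads, leaving out T3 replicates 1 and 2, and all alternatives for the member medians and non-overlap counts between altitudes were added after seeing the data.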

Additional observations from a re-analysis of the deposited data

Results flagged for a closer look

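Among the named members, 1 value stood apart from those of the other yaks, taken over all 3 altitudes. Gene 102273010 was at 0.706 FPKM in T1 replicate 1, the highest of the 9 yaks, and its gap to the next yak was 0.525 of the whole range on the log2(FPKM + 1) scale, above Dixon's critical value at the 95% level. The value rests on 18 reads, against 7, 7 and 0 reads in the other yaks. Chance picks out about 1 in 20 groups of normal values in this way, a rate that does not hold here, where 6 of the 9 values are tied at 0 and 4 genes were looked at.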

How the results depend on the processing

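The number of members followed the limits of the rule, with 122 genes when the limit on the ratio was halfway between 1 and 1.5, 26 at 2, 13 at 3 and 36 at a mean of at least 5 FPKM, and 66 to 94 with 1 library left out (82 without CON replicate 1, 88 without CON replicate 2). All 64 members were kept whenever a yak was left out, where the rule has fewer yaks to pass. Only 54 of them were kept without CON replicate 1, and 54 without CON replicate 2. Other pseudocount, filter, cap and scaling choices gave 65 to 85. Over all genes tested, limma called 380, 297 and 382 genes for CON against T1, T2 and T3, and 0 for each pair of altitudes. In the same order, library weights gave 1363, 788 and 1885 genes and 56 members in T1, with 1266 genes and 5 members for T1 against T3 and 317 genes for T2 against T3. A mean of at least 5 FPKM, which tests fewer genes, gave 137, 78 and 90 genes and 20, 16 and 23 members. Fitting only the 2 groups compared gave 766, 123 and 138 genes, 14 members in T2 and 24 in T3, and 1 gene each for T1 against T2 and T2 against T3. Voom gave 164, 94 and 161 genes and 22 members in T2, and a pseudocount of 0.1 gave 25 members in T2. Unadjusted p gave 1356, 1112 and 1440 genes and 55 members in T1, then 356, 775 and 739 genes and 1, 7 and 6 members between altitudes. Without T3 replicates 1 and 2, CON against T3 gave 139 genes and 20 members, T1 against T3 gave 1 gene and T2 against T3 gave 3. With 1 library left out, the genes called ranged from 85 to 581, 66 to 401 and 87 to 1143 against CON, and from 0 to 3, 0 to 1188 and 0 to 865 between altitudes. Members ranged from 7 to 42, 7 to 44 and 11 to 57 against CON, and from 0 to 0, 0 to 4 and 0 to 4 between altitudes. Except where a setting tests fewer genes or samples, the cause was not tested.

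Replicate numbers were only shared numbers, since same-numbered libraries came from different animals and their correlations ran from -0.109 to 0.394. With the replicate block, 280, 249 and 304 genes and 29, 30 and 46 members were called against CON, and 0 between altitudes.

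Some changes between altitudes turned direction. For gene 102279846, T1 against T3 (0.03) ran from -0.13 to 0.34 with 1 library left out and was -0.09 without T3 replicates 1 and 2. For gene 102273010, T1 against T2 (-0.02) was 0.27 with a pseudocount of 0.1, 0.08 with library weights, 0.98 with voom and -0.15 to 0.24 with 1 library left out, and T1 against T3 (-0.26) was -1.0 with a pseudocount of 0.1, -1.70 with voom and -0.39 to 0.00 with 1 library left out. T1 against T2 of gene 102273400 (0.42) was -0.02 with library weights, and T2 against T3 of gene 102275173 (0.26) was -0.09 without T3 replicates 1 and 2 and at most 0.43 with 1 library left out. The member median was 0.04 with median-ratio and 0.04 with quantile scaling for T1 against T2 (-0.06 to 0.04 with 1 library left out), 0.08 and 0.13 for T1 against T3, and 0.06 with quantile scaling for T2 against T3. Both scalings moved all genes tested as well, whose medians for T1 against T3 became 0.00 and 0.01. Of all values of the named genes under the alternatives, 460 kept their direction and side of the threshold, 12 changed direction, 22 lost the threshold and 4 gained it. The negative binomial count tests planned for the recovered reads were not run, and voom was used on those reads in their place. Low read numbers limit gene 102273010, which had no read in 6 yaks.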
